A study of Mus musculus with 2 samples.

Results

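The angiotensin and endothelin system is described here through 9 genes, chosen by symbol and read in the gene tables and in both transcript tables of 2 heart libraries. They are 9 of the 55536 annotated genes of the series. Agt and Edn1 encode the peptide precursors, Ren1, Ace and Ece1 encode the cutting enzymes, and Agtr1a, Agtr2, Ednra and Ednrb encode the receptors. Total RNA came from hearts of female B6CASTF1/J mice (an F1 hybrid strain) at 4 days of age, which the labels number as biological replicates 1 and 2. Both libraries carry the same donor label, and nothing but the replicate numbers says that they came from separate animals, so the SDs below may be technical. There is no treatment, mutant or control to compare with, and since 2 libraries allow no permutation p under 0.5, no p-value is given.

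Both peptide systems act on blood vessel tone, salt balance and the growth of heart cells. In the angiotensin arm, renin cuts angiotensinogen to angiotensin I, and angiotensin-converting enzyme trims that to angiotensin II, which acts mainly through the AT1 receptor (split in mouse over Agtr1a and Agtr1b) and also binds the AT2 receptor Agtr2, known for its expression in fetal tissue. In the endothelin arm, furin-type convertases and then endothelin-converting enzyme release endothelin-1, which acts through the A receptor on muscle cells and through the B receptor, found on endothelium, where it also clears the peptide.

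The peptide-coding stretches and the starts of the enzyme genes are shown first, because the levels below are levels of these messages and because Ace and Ece1 have several annotated starts. Angiotensin I is encoded within exon 2 of 5 of Agt (chr8:124564450-124564479, minus strand, GRCm38, GENCODE M21), and capitals mark the codons of angiotensin II. Endothelin-1 is encoded within exon 2 of 5 of Edn1 (chr13:42303649-42303717, plus strand), and capitals mark the codons of the mature peptide, followed by the codons at the site that Ece1 cuts.
Agt: GACCGCGTATACATCCACCCCTTCcatctc
Edn1: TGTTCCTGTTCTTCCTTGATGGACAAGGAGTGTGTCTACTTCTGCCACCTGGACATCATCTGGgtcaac

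Ace and Ece1 start windows were taken from RefSeq (GRCm38.p6), each with 250 bases before and 50 bases after an annotated start, and both genes lie on the plus strand. Capitals mark matches on either strand. One motif searched for is the GC box, which has the letters GGGCGG. Another searched for is the TATA box, which is spelled here with the letters TATAAA. The GATA motif was searched for in the form that reads AGATAA. For the AP-1 motif the form was TGANTCA, where N is any base. The GATA and AP-1 motifs had no match in these 4 windows. The upstream Ace window lies at chr11:105967698-105967997 and the inner one, next to the start of the short transcript Ace-202, at chr11:105974939-105975238. Ece1 has 4 windows, of which an upstream and an inner one are shown. The upstream window lies at chr4:137861987-137862286 and the inner one, around the annotated start of Ece1-204, at chr4:137913308-137913607.
Ace upstream: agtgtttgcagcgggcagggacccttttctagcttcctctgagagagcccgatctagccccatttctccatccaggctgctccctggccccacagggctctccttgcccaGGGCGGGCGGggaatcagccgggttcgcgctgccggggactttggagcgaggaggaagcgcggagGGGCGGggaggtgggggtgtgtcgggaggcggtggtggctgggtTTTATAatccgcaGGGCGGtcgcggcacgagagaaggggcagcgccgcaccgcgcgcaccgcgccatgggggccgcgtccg
Ace inner: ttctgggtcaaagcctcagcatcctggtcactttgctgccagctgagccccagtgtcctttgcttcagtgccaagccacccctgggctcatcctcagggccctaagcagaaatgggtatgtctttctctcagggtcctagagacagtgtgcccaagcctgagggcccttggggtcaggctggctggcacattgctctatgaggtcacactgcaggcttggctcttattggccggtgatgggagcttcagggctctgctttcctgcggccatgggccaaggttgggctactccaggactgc
Ece1 upstream: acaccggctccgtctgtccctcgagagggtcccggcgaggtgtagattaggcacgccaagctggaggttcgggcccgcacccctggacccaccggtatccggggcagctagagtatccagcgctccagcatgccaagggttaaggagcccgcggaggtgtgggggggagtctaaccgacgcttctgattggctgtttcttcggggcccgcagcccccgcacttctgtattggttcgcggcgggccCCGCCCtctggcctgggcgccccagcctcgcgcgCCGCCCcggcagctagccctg
Ece1 inner: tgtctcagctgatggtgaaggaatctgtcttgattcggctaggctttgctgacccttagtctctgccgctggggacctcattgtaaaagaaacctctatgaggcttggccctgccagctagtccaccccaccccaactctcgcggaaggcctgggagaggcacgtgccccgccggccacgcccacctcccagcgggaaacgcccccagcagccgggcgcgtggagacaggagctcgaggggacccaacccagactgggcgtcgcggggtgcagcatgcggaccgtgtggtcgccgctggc

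The upstream Ace window held 4 GC boxes, 2 of them overlapping, and a TATA box letter run on the minus strand 31 bases before the start. Its inner window held none of the searched letters. The upstream Ece1 window held 2 GC boxes on the minus strand, and the inner one shown held no match. Of the Ece1 windows not shown, the one at chr4:137862030-137862329 overlaps the upstream window and holds the same 2 GC boxes. A second inner window at chr4:137920543-137920842 held 1 GC box on the minus strand, before the start. Among 32851 RefSeq windows of the same length, the GC box letters were present in 35.66%, the TATA box letters in 13.62%, the GATA letters in 11.18% and the AP-1 letters in 7.808%, so these runs are common. The windows of Agt and Ren1 also held the TATA box letters, 30 and 29 bases before the start. The window of Edn1 held the GATA letters on the minus strand, 9 bases after the start. A match describes letters and not a bound site. Agtr1a had no window in the table.

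Expected counts are the authors' estimates of reads per gene, and values below are those of the first quantification unless the second, a separate transcript table summed per gene, is named. The libraries held 36175363 (replicate 1) and 32509660 (replicate 2) expected counts, with 0.5821% and 0.5473% in spike-ins. All 6 cardiomyocyte markers were detected in both hearts, led by Myl2, a ventricular myosin light chain, at 8198 and 8449 TPM (a length-corrected abundance) and Myh6, a myosin heavy chain, at 7039 and 6860 TPM. None of the 5 liver, 4 kidney, 4 lung epithelium or 4 adrenal cortex markers reached 1 TPM in both hearts. The libraries differed in blood and skeletal muscle messages. The 4 erythroid markers summed to 11388 TPM in replicate 1 and 141 in replicate 2, and the 5 skeletal muscle markers to 294 and 128 TPM. Of the skeletal muscle sums, Acta1 (an actin) alone held 263 and 125 TPM. The other markers of that list differed by larger ratios, with Mylpf next at 14.6 and 1.23 TPM. In whole tissue, fewer cells of a type and less RNA per cell cannot be told apart.

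Of the 9 genes, 7 reached 1 TPM in both hearts, all but Agtr2 and Ren1. Over all 22028 protein-coding genes the share was 54.2%. The enzyme Ece1 and the 3 receptors Ednra, Agtr1a and Ednrb had the highest TPM, the precursors were lower, and renin was close to absent. The TPM of the 9 genes summed to 141.57 in replicate 1 and 132.97 in replicate 2.

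**Figure D1:**
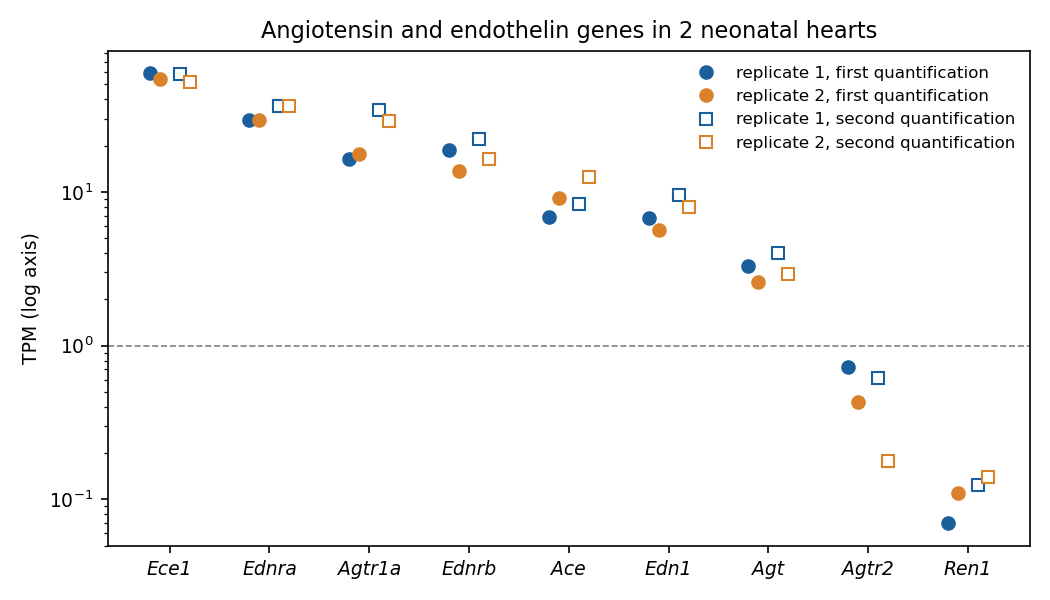
TPM of the 9 genes (log axis) in replicate 1 (blue) and replicate 2 (orange), in the first quantification (filled circles) and the second (open squares), ordered by mean TPM of the first, with a dashed line at 1 TPM. Ece1 is highest at 59.14 and 54.62 TPM, Agtr2 and Ren1 lie below the line, and Agtr1a has higher squares than circles.

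Agt, the angiotensinogen gene (ENSMUSG00000031980.9, chr8:124556534-124569706), had 165 counts in replicate 1 and 114 in replicate 2, or 3.28 and 2.59 TPM. Replicate 1 was the higher, and the mean of 2.94 ± 0.488 TPM (SD, n = 2) lay above that of only 12.1% of the 11948 coding genes detected in both hearts. The liver is the main source of circulating angiotensinogen. Of the 5 liver markers, Ttr (transthyretin) was highest at 26 counts in replicate 1 and 36 in replicate 2, or 0.85 and 1.35 TPM. Alb (albumin) had 45 and 17 counts, Serpina1a (an antitrypsin) had 0 in both, and the 5 summed to 2.14 and 2.16 TPM. The part of liver RNA in the level of Agt was not tested.

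Ren1, the renin gene (ENSMUSG00000070645.5, chr1:133350510-133360325), had 3 counts in replicate 1 and 4 in replicate 2, with exact 95% Poisson intervals of 0.619 to 8.77 and 1.09 to 10.2 counts. These are 0.07 and 0.11 TPM, and the hearts could not be told apart at this depth. The kidney is the classical source of renin, and its markers Umod (uromodulin) and Slc12a1 (a kidney salt transporter) had 0 counts in both libraries. On the log2 scale, the TPM of Agt exceeded that of Ren1 by 5.55 in replicate 1 and 4.56 in replicate 2, a mean of 5.05 ± 0.70, or 33.2-fold, a ratio that rests on the few Ren1 counts.

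Ace, which encodes angiotensin-converting enzyme (ENSMUSG00000020681.14, chr11:105967945-105989964), had 876 counts in replicate 1 and 993 in replicate 2, or 6.87 and 9.19 TPM (8.03 ± 1.64). Replicate 2 was the higher, both in counts and in TPM.

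The full-length transcript Ace-201, which starts at the upstream window, carried most of the gene's TPM. It held 75.1% ± 5.57 in the first quantification and 64.7% ± 11.95 in the second. Ace-203 held 23.1% ± 3.03 and 26.5% ± 1.26. Ace-202, which starts within the inner window, encodes the short form known from testis. It was given 0 and 18.64 counts in the first quantification and 5.79 and 29.8 in the second, with posterior SDs of 6.39 and 14.3 counts in the first. At most 4.99% of the gene's TPM was therefore assigned to it in any library, and it shares its later exons with the full-length form.

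Ece1, which encodes endothelin-converting enzyme 1 (ENSMUSG00000057530.14, chr4:137862237-137965229), had 5333 counts in replicate 1 and 4194 in replicate 2, or 59.14 and 54.62 TPM (56.88 ± 3.20). It was the highest of the 9 genes and lay above 88.7% of the detected coding genes. Its relative Ece2 had 41 counts in each library, and the TPM of Ece1 exceeded that of Ece2 by 6.55 and 5.69 on the log2 scale (6.12 ± 0.61, 69.5-fold). Per kilobase of the leading transcript that difference was 4.27, so its size depends on the lengths used for Ece2. Against Ace, the other converting enzyme, Ece1 had 7.15-fold more TPM. The log2 ratios of Ace over Ece1 were -3.11 in replicate 1 and -2.57 in replicate 2. The difference was 5.39-fold in the second quantification and 5.17-fold per kilobase of the leading transcript.

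Transcripts of Ece1 showed how short models weigh on TPM. Ece1-201, from the upstream start, held 96.5% of the gene's counts and 64.9% ± 1.45 of its TPM in the first quantification, and 86.2% ± 0.436 of the TPM in the second. Ece1-203, a model of 172 nt, held 19.2% ± 0.305 of the TPM on 23 and 19 counts, and 0 counts in the second quantification. Ece1-204, the model with the inner start, held 14.7% ± 1.39 in the first quantification and 13.2% ± 1.25 in the second, on 143.79 and 132.59 counts in the first. The transcript with the inner start was thus given reads in both hearts by both quantifications, though it shares exons with Ece1-201.

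Edn1, the endothelin-1 gene (ENSMUSG00000021367.8, chr13:42301476-42307990), had 385 counts in replicate 1 and 284 in replicate 2, or 6.72 and 5.67 TPM (6.20 ± 0.742). It lay above 28.2% of the detected coding genes and was the only endothelin gene detected. Edn2 had 1 and 0 counts, and Edn3 had 8 and 5. The TPM of Edn1 exceeded that of Edn3 by 6.07 and 6.34 on the log2 scale (6.21 ± 0.19, 73.8-fold).

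Agtr1a, the main AT1 receptor gene (ENSMUSG00000049115.15, chr13:30336441-30382867), had 812 counts in replicate 1 and 731 in replicate 2, or 16.47 and 17.58 TPM (17.0 ± 0.785). The hearts differed little, and the gene lay above 60.2% of the detected coding genes. Agtr1b, the second AT1 gene, had 0 and 1 counts. Agtr2 (ENSMUSG00000068122.10, chrX:21484544-21489164) had 48 counts in replicate 1 and 12 in replicate 2, or 0.73 and 0.43 TPM. The TPM of Agtr1a exceeded that of Agtr2 by 4.50 and 5.35 on the log2 scale (4.92 ± 0.61, 30.4-fold), and by 6.57 ± 1.10 in the second quantification.

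The level of Agtr1a depended on how short models were treated. The second quantification gave 34.1 TPM in replicate 1 and 28.9 in replicate 2, 1.85 times the first on average. Agtr1a-201, the leading transcript, held 78.4% ± 2.40 of the TPM in the first quantification and 49.9% ± 6.19 in the second. Agtr1a-206, a model of 445 nt, held 1.03% in the first on 1.57 and 1.63 counts, and 39.4% ± 4.21 in the second on 48.5 and 31.7 counts. By contrast, Agtr1a-201 alone had 13.19 and 13.49 TPM in the first quantification and 15.5 and 15.7 in the second. Agtr1a-203 held 10.4% in the first quantification and 0 in the second. For Agtr2, the model of 314 nt, Agtr2-202, took 48.9% ± 28.5 of the TPM in the first quantification on 1.25 and 1.55 counts, and none in the second, so most of the gene's counts sat on Agtr2-201.

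Ednra, the endothelin A receptor gene (ENSMUSG00000031616.7, chr8:77663031-77724464), had 2866 counts in replicate 1 and 2490 in replicate 2, or 29.42 and 29.15 TPM (29.3 ± 0.191). The hearts were nearly level, and the gene lay above 76.3% of the detected coding genes. Ednra-201 held 89.3% ± 1.35 of its TPM and 90.3% ± 1.54 in the second quantification, the rest going to the retained-intron model Ednra-202. 4933431K23Rik, which spans the gene on the opposite strand, had 45 and 39 counts. Whether the counting used strand is not given in the sources used here.

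Ednrb, the endothelin B receptor gene (ENSMUSG00000022122.15, chr14:103814625-103844402), had 1951 counts in replicate 1 and 1241 in replicate 2, or 18.87 and 13.63 TPM (16.2 ± 3.71). Replicate 1 was the higher, and the SD was the largest in TPM among the 9 genes. The TPM of Ednra exceeded that of Ednrb by 0.64 in replicate 1 and 1.10 in replicate 2 on the log2 scale (0.87 ± 0.32, 1.83-fold), and by 0.93 ± 0.29 in the second quantification. The 3 transcripts of Ednrb have the same coding length of 1326 nt. The quantifications divided the gene differently among them: Ednrb-201 held 45.5% ± 2.32 of the TPM in the first and 78.2% ± 18.5 in the second, Ednrb-202 held 35.8% ± 1.20 and 10.9% ± 15.2, and Ednrb-203 held 18.8% ± 1.12 and 10.8% ± 3.29. Posterior SDs of the transcript counts reached 118 in replicate 1, while that of the whole gene was 0, so the division of reads was uncertain among its transcripts and not between it and other genes.

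**Figure D2:**
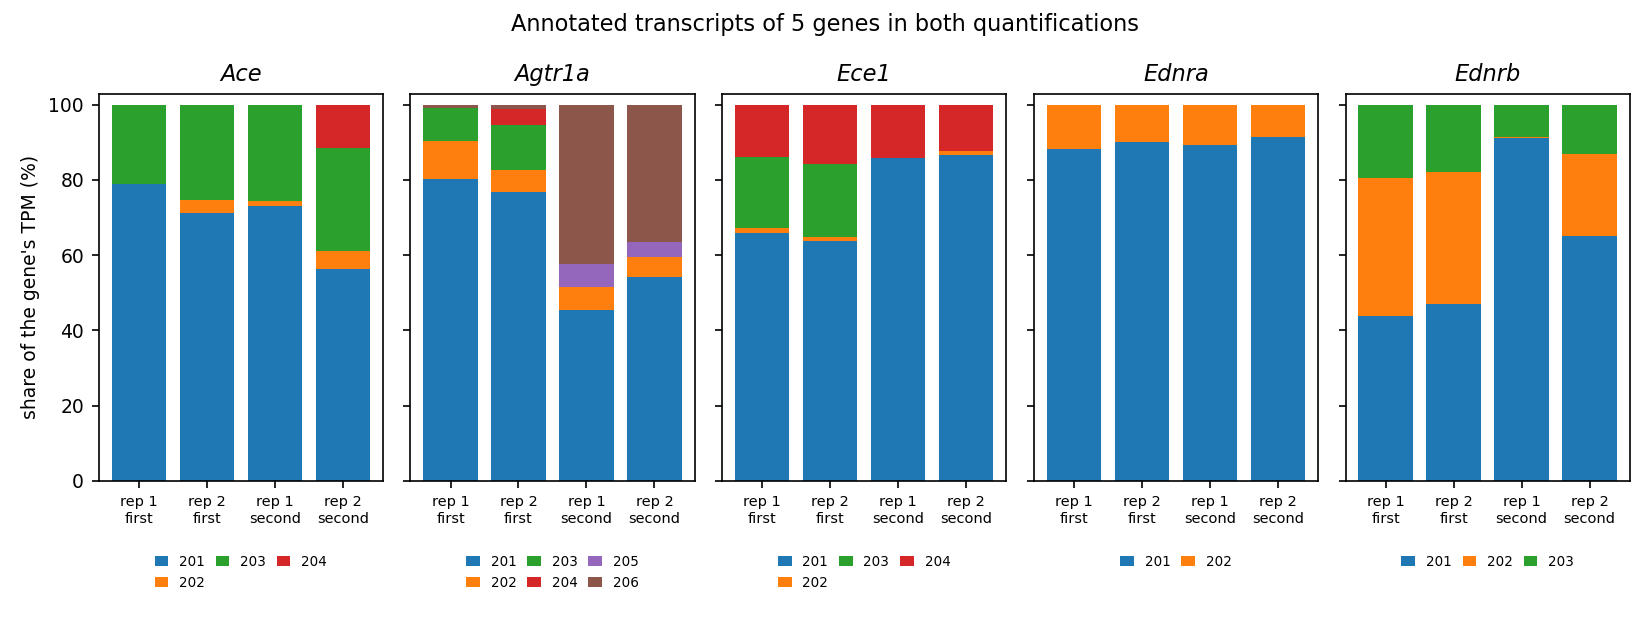
Share of each annotated transcript in its gene's TPM (%), for 5 genes with several transcripts, in replicates 1 and 2 of the first and second quantification; colours are transcripts by the number in their name. Transcript 201 leads in every bar, Agtr1a-206 is large in the second quantification (39.4% on average), and the division of Ednrb differs between quantifications.

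In order of mean TPM, the genes ran Ece1, Ednra, Agtr1a, Ednrb, Ace, Edn1, Agt, Agtr2 and Ren1. Neighbours were taken as separated when the lower library of the higher gene lay above the higher library of the lower gene, which held for 7 of 8 neighbouring pairs. Agtr1a and Ednrb were not separated, since Ednrb had 18.87 TPM in replicate 1 and Agtr1a 16.47. Ace and Edn1 were separated narrowly, at 6.87 against 6.72 TPM. In the second quantification Agtr1a and Ednrb were separated and Ace and Edn1 were not. The 10 gene pairs compared kept their direction in both hearts and both quantifications; the narrowest was Ednra over Agtr1a, at a log2 ratio of 0.78 ± 0.08 in the first and 0.20 ± 0.16 in the second.

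The hearts were compared on counts scaled by TMM, a scaling that assumes most genes are level, and the log2 ratio is that of replicate 1 over replicate 2. Genes averaging 1 TPM or more, with 20 or more counts in all, were tested, and a gene was called when it was 2-fold or more apart with an exact 95% counting interval that did not include equality. This describes a pair of libraries and has no replicate check. Of the 7 genes tested, 0 were called, with 117 of 13598 genes, or 0.86%, called over all genes. At any size of ratio, the interval did not include equality for 6 of the 7, against 23.7% of all tested genes. The 7 had a median log2 ratio of 0.24, beside 0.00 over all genes tested, and 6 of them were higher in replicate 1, where 51.1% of all tested genes were. When spike-in totals set the scale, which moved the median of all genes by -0.13, 4 of the 7 were higher in replicate 1 (Agt, Edn1, Ece1 and Ednrb) and their median was 0.10. The interval then did not include equality for 3 of the 7, Ace, Ece1 and Ednrb. Shares of all tested genes, for direction or interval, were not computed on that scale, where the median log2 ratio of all tested genes was -0.13.

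Ednrb had the largest log2 ratio of the 7, 0.54 (0.44 to 0.65), or 1.46-fold, and 3.42% of tested genes were at least as far from 0. Agt followed at 0.42 (0.07 to 0.78), with 5.68% of genes as far. Edn1 stood at 0.33 (0.10 to 0.56) and Ece1 at 0.24 (0.18 to 0.30), so the endothelin precursor, its converting enzyme and the B receptor had the higher value in replicate 1. Under the spike-in scale the log2 ratios were 0.41 for Ednrb, 0.29 for Agt, 0.20 for Edn1 and 0.10 for Ece1, and the intervals of Agt and Edn1 included equality. Ace lay on the other side at -0.29 (-0.42 to -0.16), and at -0.42 under the spike-in scale. Ednra stood at 0.09 (0.02 to 0.17) and lay on the other side of 0, at -0.04, under the spike-in scale. Agtr1a, at 0.04 (-0.10 to 0.19), had an interval that included equality. Agtr2 was too low to be tested, and its 48 against 12 counts gave 1.85 (0.96 to 2.94). With no minimum set it was called, as were 2.2% of 26503 genes.

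**Figure D3:**
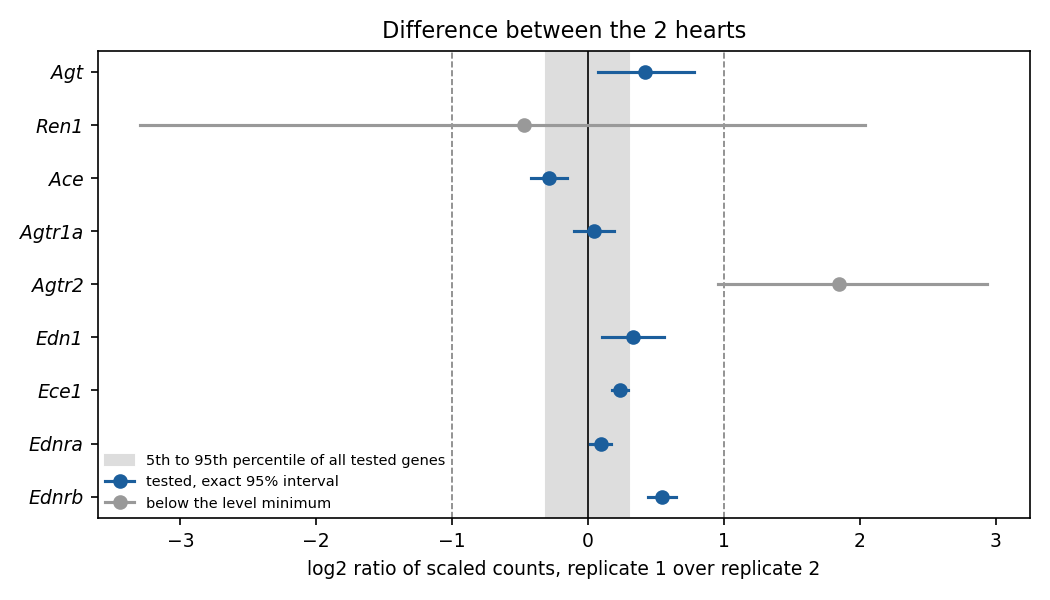
Log2 ratio of TMM-scaled counts, replicate 1 over replicate 2, with exact 95% counting intervals (bars), for the 9 genes; grey points were below the level minimum, the grey band spans the 5th to 95th percentile of all tested genes (-0.31 to 0.30) and dashed lines mark 2-fold. Of the tested genes, Ednrb at 0.54, Agt at 0.42 and Edn1 at 0.33 lie beyond the band. Ace at -0.29 is the only tested gene left of 0, and the interval of Ren1 is the widest.

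Markers of several cell types leaned to replicate 1 or to replicate 2, counted here by the sign of the TMM log2 ratio at any size, with sums in TPM. All 4 tested endocardial markers were higher in replicate 1 (median log2 ratio 0.49; the list of 5 summed to 69.5 and 58.2 TPM), among them Npr3, a natriuretic peptide clearance receptor, at 20.3 and 13.8 TPM and Cgnl1, a junction protein, at 25.1 and 26.5. For Cgnl1 the scales disagreed, with a TMM log2 ratio of 0.20 and the higher TPM in replicate 2. Atrial markers were higher in replicate 1 in 5 of 5 (0.35; 2055 and 1720 TPM) and epicardial and mesothelial markers in 5 of 5 (0.93; 56.6 and 36.3 TPM). Endothelial markers were higher in replicate 1 in 6 of 7 (0.06; 363 and 369 TPM), and in 2 of 7 under the spike-in scale (-0.08). Fibroblast markers were higher in replicate 1 in 0 of 6 (-0.16; 668 and 794 TPM), and smooth muscle and pericyte markers in 1 of 7 (-0.11; 154 and 163 TPM). Macrophage markers were higher in replicate 1 in 0 of 5 (-0.27; 29.3 and 42.4 TPM). By the 2-fold rule, 1 epicardial and mesothelial marker was called. In the endocardial, atrial, endothelial, fibroblast, smooth muscle and pericyte, and macrophage lists, 0 were called. Apart from the endothelial list, the counts by sign of these lists were the same under the spike-in scale. No marker of these lists was at 0 in either heart. The erythroid and skeletal muscle lists were higher in replicate 1 in 3 of 3 and 5 of 5 tested markers, all of them called. The part of these cell types in the ratios of Ednrb, Agt, Edn1, Ece1 and Ace was not tested.

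**Figure D4:**
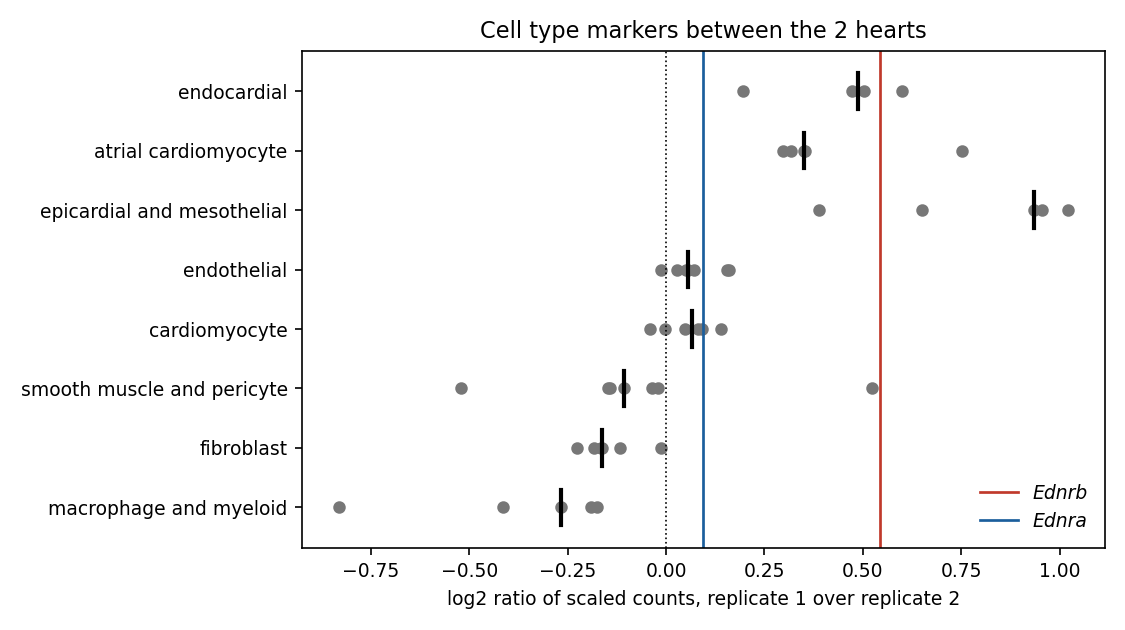
Log2 ratio of TMM-scaled counts, replicate 1 over replicate 2, of each tested marker gene (grey points) by cell type list, with the list's median (black bar) and the ratios of Ednrb (red line, 0.54) and Ednra (blue line, 0.09). Endocardial markers run from 0.20 to 0.60 with a median of 0.49, and fibroblast markers lie left of 0. Single markers of other lists also lie near the line of Ednrb, such as a smooth muscle marker at 0.52 and an epicardial and mesothelial marker at 0.65.

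Around the 9 genes, 67 other genes of 7 pathway lists were read, and 43 reached 1 TPM in both hearts. None of those 43 was called between the hearts, and their median log2 ratio was 0.02, with 23 higher in replicate 1 and 20 in replicate 2. The spike-in scale shifts every gene by the same amount. On it the counts were 6 and 37 and the median -0.12, beside a median of -0.13 over all tested genes. With the 9 genes included, 50 of 76 were detected, beside 54.2% of all protein-coding genes. In the second quantification 52 of the 76 reached 1 TPM in both hearts. The genes of the relay behind the receptors mostly reached 1 TPM, while those of aldosterone and bradykinin mostly did not.

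Of the 17 genes of angiotensin supply, 13 were detected. The highest was Ctsd, the lysosomal protease cathepsin D, at 152.4 and 159.2 TPM, followed by Prcp, a carboxypeptidase that cuts angiotensin II, at 22.9 and 22.8. Atp6ap2, the prorenin receptor, had 14.5 and 14.4 TPM, and Nln, the peptidase neurolysin, 12.1 and 13.8. Renin itself had 3 and 4 counts, and binding of prorenin was not measured. Ctsg (cathepsin G) and Ace3 had 0 counts in both libraries.

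Of the 11 receptor and receptor-associated genes, 7 were detected. Mtus1, whose product binds the AT2 receptor, had 91.0 TPM in both hearts, and Lnpep, an aminopeptidase that binds angiotensin IV, had 60.0 and 55.8. These were far above Agtr2 itself at 0.73 and 0.43 TPM. Arap1, an Arf GTPase-activating protein, had 19.9 and 22.6. Mas1, the receptor for angiotensin 1-7, was not detected at 4 and 10 counts, and Mrgprd had 0 in both.

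Endothelin supply had 5 of 11 genes detected. Besides Ece1 and Edn1 these were the proprotein convertases Furin, at 46.2 and 47.9 TPM, Pcsk7, at 9.11 and 11.7, and Pcsk5, at 3.88 and 3.71. Both receptors were detected.

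In the relay list, which covers Gq and G12/13 proteins, phospholipases, protein kinases C and calcium channels, 20 of 23 genes were detected. The highest were Rgs5, a brake on G protein signalling known from pericytes, at 79.2 and 89.8 TPM, Gna12 at 38.5 and 39.7, the calcium release channel Itpr1 at 31.8 and 35.5, and the phospholipase Plcb4 at 30.5 and 33.9. Values of the hearts were close, with 8 of the 20 higher in replicate 1 on the TMM scale. In the aldosterone and bradykinin list, 1 of 9 was detected, the mineralocorticoid receptor Nr3c2 at 6.10 and 4.92 TPM. The bradykinin receptor Bdkrb2 lay just under the limit at 0.95 TPM in both hearts, on 99 and 86 counts. In the second quantification it passed, at 1.16 and 1.11 TPM. Hsd11b1, a glucocorticoid-activating enzyme, had 25 and 10 counts, and Hsd11b2, which inactivates glucocorticoids, had 11 and 12. Cyp11b1 and Cyp11b2, the last enzymes of corticosterone and aldosterone synthesis, had 0 counts. For apelin, a peptide with actions opposed to angiotensin, Apln had 19.5 and 20.3 TPM and its receptor Aplnr 37.9 and 44.5, while Apela had 16 and 6 counts.

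**Figure D5:**
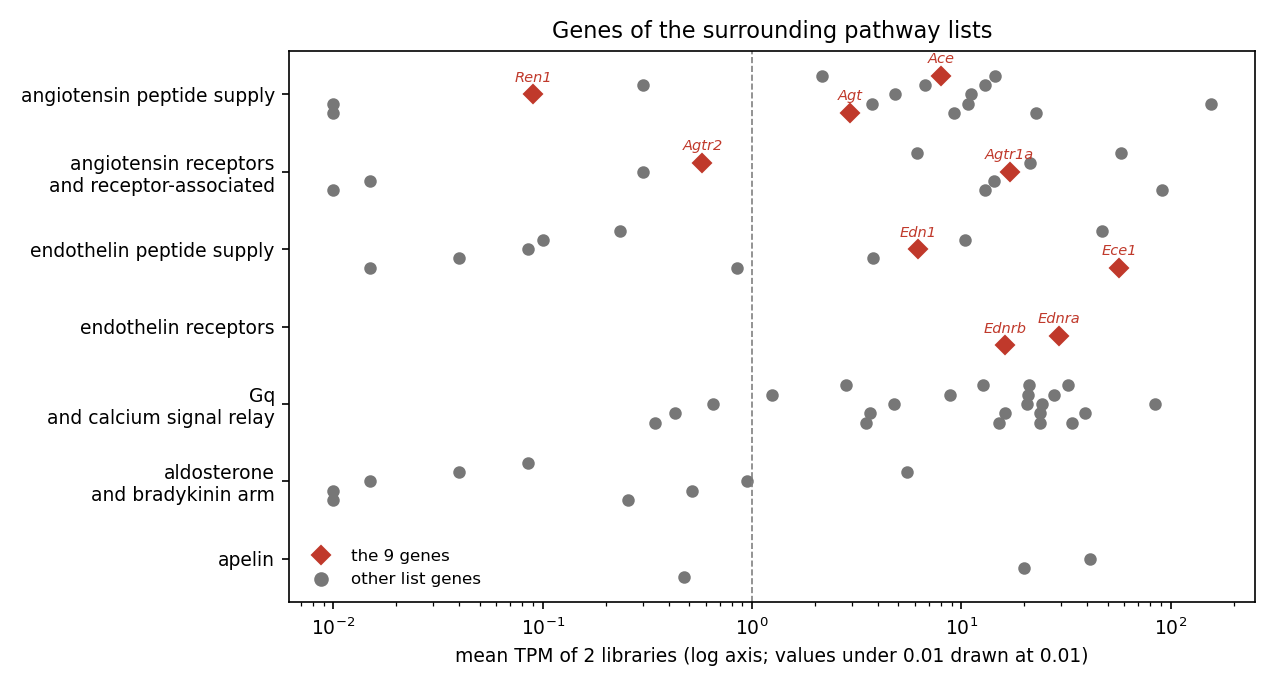
Mean TPM of 2 libraries (log axis) for every gene of the 7 pathway lists, with the 9 genes as red diamonds and other genes as grey circles; the dashed line is at 1 TPM and vertical offsets within a list only spread the points. Relay genes lie mostly right of the line (20 of 23), and aldosterone and bradykinin genes mostly left of it (8 of 9).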

How the data were processed

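Total RNA sequencing of 2 heart libraries was used; per the labels they are stranded, ribosome-reduced, made from 300 ng of RNA and carry ERCC spike-ins. The authors deposited estimated (expected) counts and TPM per gene and transcript in a table with the layout of RSEM, on mm10 with annotation M21, and estimated counts and TPM in a table with the layout of kallisto, called the second quantification here and summed per gene. The posterior SD of the counts is a score deposited by the authors, and served only to mark uncertain divisions of reads. Program names and versions were not given in the sources used here.

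Symbols and 1-based coordinates came from GENCODE M21. The members and lists were chosen with earlier results of these data known, and 1 listed symbol, Ren2, was not found in the annotation. Of the 55536 annotated genes, 86 had no second quantification. Annotated genes held 99.42% and 99.45% of counts, and features identified by a number only (26248) held 0 and 6 counts. Total counts were 36175363 and 32509660. Intervals cover counting error alone: the reads carry no molecular identifiers and may include copies of a molecule.

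Between hearts, expected counts were rounded, scaled by TMM (edgeR 4.0.16, R 4.3.3) over annotated genes and given a prior count of 0.5, with exact 95% Clopper-Pearson intervals of the ratio and 0.86% of tested genes called. The common coefficient of variation between the libraries, which edgeR terms biological, was 9.032% over 16473 genes. Since both libraries carry the same donor label, it may be technical. Calculations used Python 3.11.15, numpy 2.4.6, pandas 2.3.3 and scipy 1.17.1, and the rule of calling was tested on simulated data. Genes named besides the 9 were both genes of each of 10 pairs, the 4 highest by mean TPM of each pathway list with those at 0 counts, and the 2 highest by mean TPM of marker lists with those at 0; Mas1, Pcsk5, Cma1 and 4933431K23Rik were chosen after their values were seen. A few genes covered by the rule are not reported here. Alternatives were the second quantification, other abundance scales, DESeq2 1.42.0 size factors, total counts, spike-in totals, upper quartile, other minimum levels and each library alone.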

Additional observations from a re-analysis of the deposited data

How the results depend on the processing

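The count of genes reaching 1 TPM, of separated neighbours, of pairs with a kept direction, of shared leading transcripts and of detected pathway genes stayed within 1.5 times its value under every alternative run. The count of called genes between the hearts was 0 under all scalings and minimum levels run, except that with no minimum TPM or count it was 1, Agtr2, where 2.2% of 26503 genes were called. The log2 ratio of Ednra reversed to -0.040 with spike-in totals; that scaling also moved the median of all genes by -0.13, and 3 of the 7 tested genes (Ace, Ece1 and Ednrb) then had an interval beside equality in place of 6. With total counts there were 5, and with DESeq2 size factors 6. The share of all tested genes with such an interval was computed on the TMM scale only. On counts with no length, Ednrb and Ace stood above Agtr1a. The order and pairs were also computed per kilobase of the leading transcript, and levels of the second quantification over nuclear protein-coding genes; these were chosen after seeing the data, and per kilobase 6 of 8 neighbours were separated. Without replicate 1 the leading transcript was shared for 8 of 9 genes, Agtr2 being the exception. No paired analysis was possible because there is 1 group. With 2 libraries and possibly 1 donor, differences between animals cannot be judged, and levels under 1 TPM rest on few counts.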

Other observations

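Mast cells are a known source of angiotensin-forming proteases. Cma1, a mast cell protease, had 4.49 TPM in replicate 1 and 5.18 in replicate 2, and its part in forming angiotensin II was not tested. All 4 mast cell markers were detected, with sums of 17.2 and 18.8 TPM. Among these markers Kit, a receptor also found on other cells, had 8.15 and 7.48 TPM, and the tryptase Tpsb2 had 4.90 and 5.55.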
